A study of Mus musculus with 8 samples.

Results

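The respiratory chain and the ATP synthase of mitochondria are built from subunits of which most are encoded in the nucleus. The genes described here are those whose mouse symbol names a nuclear-encoded subunit of complex I (*Nduf*), complex II (*Sdh*), complex III (*Uqcr* and *Cyc1*), cytochrome c (*Cycs*), complex IV (*Cox4* to *Cox8*) or the ATP synthase (*Atp5*, complex V). By this rule on names alone, 70 of the 21950 genes of the deposited count table were members. Of these, 28 belonged to complex I, 4 to complex II, 7 to complex III, 1 was the cytochrome c gene, 18 were assigned to complex IV and 12 to complex V. *Ndufa4*, whose product is now counted as a subunit of complex IV, and *Cox7a2l*, whose product helps to join complexes into supercomplexes, were placed with complex IV. A further 17 protein-coding genes with such names had no row in the count table and were not analysed here. Among them were *Ndufs3*, *Cox4i1*, *Atp5g2* and the gamma subunit gene *Atp5c1*. The 17 genes belong to complexes I, III, IV and V, so the account covers only a part of each of these.

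Complexes I and II pass electrons from NADH and succinate to ubiquinone, complex III passes them on to cytochrome c, and complex IV hands them to oxygen. Complexes I, III and IV pump protons across the inner membrane, and the ATP synthase uses the return of these protons to make ATP. Germ cells are known to carry tissue-specific isoforms of some subunits, and the tissue forms of complex IV subunits are the best known of these.

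The study compared germ cells made *in vitro* with germ cells from the embryo by RNA-Seq of pooled cells. The d6PGCLC group held 4 libraries of primordial germ cell-like cells that were derived from the BVSC-iPSC line, collected on day 8 of culture, which is day 6 of PGCLC differentiation, and chosen by the reporters Blimp1-Venus and Stella-ECFP. The E12.5 PGC group held 4 libraries of primordial germ cells of female gonads of C57BL/6J fetuses at E12.5, sorted for SSEA1 and integrin β3. Pools came from separate experiments. All d6PGCLC libraries came from a single line, which carries the reporters. Genotype, stage, culture and sorting scheme differ between the groups together, so that their effects cannot be told apart.

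The libraries held 8054596 to 12024841 counts in d6PGCLCs and 7991437 to 11166023 counts in PGCs, and 3 counts, the most that a listed 0 allows, corresponded to 0.25 to 0.38 CPM (counts per 1000000 counts of the library). CPM were scaled by TMM, which sets library totals to a common composition. The summed level of 10 germ cell markers was 3947 to 4553 CPM in d6PGCLCs and 4512 to 5046 CPM in PGCs, but single markers differed: *Dppa3* (691 and 384 CPM) and *Prdm1* (444 and 192 CPM) were higher in d6PGCLCs, and *Dazl* (37.7 and 1262 CPM) and *Ddx4* (35.5 and 760.4 CPM) were lower. The 7 gonadal somatic markers in the table summed to 0.50 to 1.45 CPM in d6PGCLCs and 3.16 to 7.89 CPM in PGCs, and the 4 muscle markers to at most 1.17 CPM in any library. Blood markers summed to 12.1 to 17.4 CPM and 1.75 to 35.3 CPM, and endothelial markers to 20.0 to 34.5 CPM and 14.5 to 25.0 CPM, in the same order. Of the defining genes, *Hba-a2*, *Hbb-bs* and *Emcn* were at 0 in every d6PGCLC library and *Ptprc* and *Csf1r* in every PGC library. *Ptprc* and *Fcgr1* were at most 0.10 CPM in any library, and *Csf1r* was at 1.91 CPM in d6PGCLCs. The endothelial *Cdh5* (10.97 and 4.18 CPM) and the macrophage gene *Cd68* (12.6 and 2.25 CPM) were higher in d6PGCLCs. The endothelial *Tek* overlapped (16.3 and 14.0 CPM), and *Kdr* and *Tie1* were at most 0.63 CPM in any library. The blood gene *Hbb-y* reached 26.0 CPM in PGC replicate 2 and at most 0.12 CPM in d6PGCLCs. The part of these cells in the results below was not tested. PGC replicates 2 and 4 stood apart. Replicate 2 held 144 CPM of the heat shock gene *Hspa1a*, against 4.42 to 20.3 CPM in the other PGC libraries. The d6PGCLC libraries held 0.31 to 0.75 CPM of *Hspa1a*, so the groups did not overlap, and the part of this difference in the results was not tested. PGC replicate 4 held 55 counts on 6 Y-linked genes although its label reads female, while the other 7 libraries held 0.

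The subunits as a whole took up nearly equal parts of both transcriptomes. They made up 1.18%, 1.51%, 1.36% and 1.31% of all counts in d6PGCLC replicates 1 to 4, and 1.32%, 1.57%, 1.45% and 1.52% in PGC replicates 1 to 4. The groups overlapped in this share, and replicate 1 was the lowest library of its group in d6PGCLCs and in PGCs. In bulk libraries, fewer cells of a type and less RNA per cell cannot be told apart.

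With edgeR's quasi-likelihood test fitted over all genes and called at an adjusted p of at most 0.05, 6 of the 70 subunits were higher in d6PGCLCs, where 16.1% of all genes were called higher, and 21 were lower, where 15.4% of all genes were called lower. The members' shares were 8.57% and 30.0%. Since 65 of the 70 had a mean of at least 1 CPM, the background at that level is nearer: 28.1% of the 11487 such genes were higher and 25.6% were lower, against 9.23% and 30.8% of the 65 subunits. The remaining 43 subunits did not pass. By complex, the share of such subunits called lower was 32.1% for complex I, 25.0% for complex II (1 of 4), 14.3% for complex III, 35.7% for complex IV and 27.3% for the ATP synthase, to be read against the 25.6%, and the shares called higher were, in the same order, 7.14%, 25.0%, 0%, 14.3% and 9.09% against the 28.1%. No set test was run on these shares. The median log2 fold change of the 65 subunits was -0.20, against 0.01 for all genes at that level, and 48 of them had a fitted value below 0.

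The changes were small. The absolute log2 fold change was below 0.5 for 57 of the 65 subunits, or 87.7%, against 54.9% of all genes with a mean of at least 1 CPM, and its median was 0.28 against 0.44. With a log2 fold change of at least 1 in size as well, 0 members were called higher and 2 lower (*Ndufs5* and *Cox8c*), where 8.00% and 6.75% of all genes were called. At the threshold of 2 that the study used, 0 were higher and only *Cox8c* was lower, where 3.24% and 3.37% of all genes were called. The 4 libraries of each group did not overlap for 4 subunits that lay higher and 8 that lay lower in d6PGCLCs, where 15.4% and 14.8% of all genes were separated in this way.

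The number of calls rested on single libraries more than their direction did. Without d6PGCLC replicate 2 or without PGC replicate 1, the subunits called higher fell from 6 to 3, where 15.1% and 14.9% of all genes were called higher. The subunits called lower were 12 without d6PGCLC replicate 4, 12 without PGC replicate 2 and 8 without PGC replicate 4, where 14.1%, 14.4% and 13.4% of all genes were called lower. Without PGC replicates 2 and 4 together, 8 were higher and 7 lower, where 14.0% and 12.3% of all genes were called, so the larger number of lower than of higher subunits was not kept in that fit. Of the 27 calls, 11 held without each library in turn: *Sdhd*, *Cox6b2* and *Atp5a1* among the higher, and *Ndufb2*, *Ndufs5*, *Ndufs7*, *Uqcrc1*, *Cox8a*, *Cox8c*, *Atp5g1* and *Atp5g3* among the lower. Of these 11, *Ndufb2*, *Cox8a* and *Cox8c* lost the call without PGC replicates 2 and 4 together (adjusted p = 0.10, 0.18 and 0.054). All 27 kept their sign in every alternative run.

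**Figure D1:**
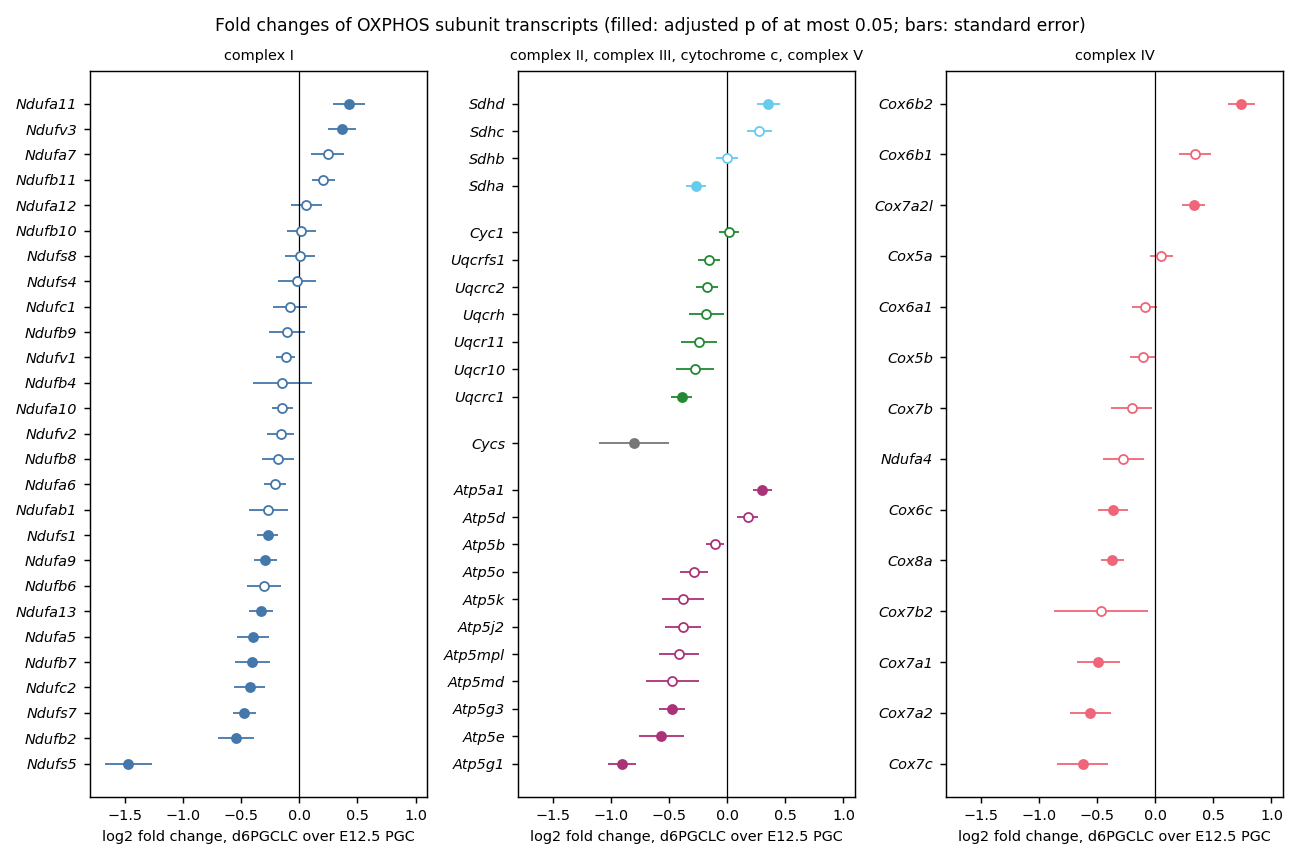
Log2 fold change of d6PGCLC over E12.5 PGC for 64 of the 65 subunits with a mean of at least 1 CPM, with its standard error from edgeR, in one panel each for complex I, for complexes II, III, V and cytochrome c, and for complex IV; filled points passed the test at an adjusted p of at most 0.05. Most points lie to the left of 0 and within 0.5 of it, and *Ndufs5* at -1.47 and *Cox6b2* at 0.74 are the outermost.

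Complex I is the largest of the complexes and the main entry point for electrons from NADH. Of its 28 measured subunits, 2 were higher in d6PGCLCs, 9 were lower and 17 did not pass, and the median log2 fold change was -0.15. The summed level of the 28 was 2519, 3536, 3155 and 2983 CPM in d6PGCLC replicates 1 to 4 and 2964, 3467, 3328 and 3508 CPM in PGC replicates 1 to 4, so that the groups overlapped.

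*Ndufs5*, an accessory subunit on the intermembrane space side of the membrane arm, had the largest change among subunits above 1 CPM. Its level was 3.96, 7.84, 6.31 and 7.88 CPM in d6PGCLC replicates 1 to 4 and 15.6, 17.5, 21.9 and 17.3 CPM in PGC replicates 1 to 4. Every d6PGCLC library lay below every PGC library. The log2 fold change was -1.47 (SE 0.20, adjusted p = 4.96e-06), and it stayed between -1.58 and -1.31 with any library left out. *Ndufs5* lies on chromosome 4 (GRCm38, 123712710 to 123718186, minus strand), and its level per length was low for a subunit, at 10.3 RPKM (CPM divided by the exonic length in kilobases) in d6PGCLCs and 28.8 RPKM in PGCs. Of the 100-base windows of its transcript, 23.0% also occur in a transcript of another gene, and reads with more than 1 place in the genome were not counted.

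Among the subunits described that carry redox centres of complex I, *Ndufs7* and *Ndufs1* were lower. *Ndufs7*, which holds the iron-sulfur cluster that hands electrons to ubiquinone, was at 93.0, 123, 112 and 96.5 CPM in d6PGCLCs and at 144, 156, 145 and 146 CPM in PGCs. The groups did not overlap, and the log2 fold change was -0.47 (SE 0.10, adjusted p = 0.00071). *Ndufs1*, the large iron-sulfur subunit, was at 223, 224, 214 and 210 CPM against 283, 227, 273 and 269 CPM. It was lower by -0.27 (SE 0.09, adjusted p = 0.022) without overlap, but PGC replicate 2 lay near the d6PGCLC libraries, and the call was lost without d6PGCLC replicate 4 or PGC replicates 1, 3 or 4 (adjusted p = 0.055 to 0.083).

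For the other centres described the groups overlapped. *Ndufv1*, which binds NADH and FMN, ranged from 253 to 281 CPM in d6PGCLCs and from 277 to 298 CPM in PGCs, with a log2 fold change of -0.12 (SE 0.08, adjusted p = 0.35), and passed with a correction for transcript length (-0.19, adjusted p = 0.041). *Ndufv2*, its iron-sulfur partner, had -0.16 (SE 0.12, adjusted p = 0.38), and passed without d6PGCLC replicate 2 (-0.31, adjusted p = 0.030). *Ndufs8*, another iron-sulfur subunit, had a fitted value of 0.00 (SE 0.13, adjusted p = 1).

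Among the accessory subunits, *Ndufa9*, which sits at the joint of the peripheral and the membrane arm, was at 108, 139, 131 and 142 CPM in d6PGCLCs and at 150, 154, 162 and 172 CPM in PGCs. It was lower by -0.29 (SE 0.10, adjusted p = 0.025) without overlap, and lost the call without d6PGCLC replicate 1 or PGC replicates 3 or 4 (adjusted p = 0.064 to 0.10). *Ndufv3*, a small subunit of the NADH-oxidising module, went the other way, at 55.1, 77.8, 59.3 and 62.2 CPM against 46.2, 49.2, 47.6 and 54.1 CPM. Its log2 fold change was 0.37 (SE 0.12, adjusted p = 0.020), and the call was lost without d6PGCLC replicate 2 or PGC replicates 1 or 3 (adjusted p = 0.054 to 0.11).

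The rest of the complex I calls had overlapping groups. *Ndufa11*, in the membrane arm, was the other higher subunit at 0.43 (SE 0.14, adjusted p = 0.021), with d6PGCLC replicate 1 at 94.8 CPM inside the PGC range of 91.1 to 116 CPM and the other d6PGCLC libraries at 138 to 172 CPM. It lost the call without d6PGCLC replicates 2 or 3 or PGC replicate 1 (adjusted p = 0.063 to 0.11). Lower by -0.54 to -0.33 were *Ndufb2*, *Ndufc2* and *Ndufb7* of the membrane arm, *Ndufa5* of the peripheral arm, and *Ndufa13*, which is also known as a regulator of cell death. Of these 5, only *Ndufb2* (-0.54, SE 0.15, adjusted p = 0.0081) held without each library in turn, though not without PGC replicates 2 and 4 together. The other 4 lost the call without PGC replicate 4, and some of them without PGC replicates 2 or 3 or d6PGCLC replicates 1, 3 or 4 (adjusted p = 0.050 to 0.15). The 17 complex I subunits that did not pass ranged from *Ndufb6* at -0.30 to *Ndufa7* at 0.25.

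Complex II, or succinate dehydrogenase, is the only complex with all its subunits encoded in the nucleus, and all 4 were measured. Of these, 1 was higher in d6PGCLCs, 1 was lower and 2 did not pass. *Sdha*, the flavoprotein that oxidises succinate, was at 608, 557, 516 and 516 CPM in d6PGCLC replicates 1 to 4 and at 696, 602, 675 and 673 CPM in PGC replicates 1 to 4. It was lower by -0.27 (SE 0.09, adjusted p = 0.019), with d6PGCLC replicate 1 above PGC replicate 2, and the call was lost without d6PGCLC replicates 3 or 4 or PGC replicates 1, 3 or 4 (adjusted p = 0.053 to 0.065).

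*Sdhd*, a membrane anchor that helps to bind ubiquinone and haem, was at 163, 201, 172 and 172 CPM in d6PGCLCs and at 116, 149, 141 and 148 CPM in PGCs. The groups did not overlap, and the log2 fold change was 0.35 (SE 0.10, adjusted p = 0.0087). *Sdhc*, the other anchor, lay in the same direction without passing, at 109 to 159 CPM against 106 to 120 CPM (0.28, SE 0.11, adjusted p = 0.057), and passed without d6PGCLC replicate 4 (0.36, adjusted p = 0.012). *Sdhb*, the iron-sulfur subunit between flavoprotein and anchors, was at 114 to 137 CPM in both groups, with a fitted value of 0.00 (SE 0.09, adjusted p = 1). Per kilobase of exon, the ratio of *Sdhd* to *Sdhb* was 1.31 to 1.42 in d6PGCLCs and 0.98 to 1.11 in PGCs, whereas that of *Sdha* to *Sdhb* overlapped, at 1.64 to 2.15 and 1.77 to 2.46.

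Promoters were read for short motifs of factors known to act on OXPHOS genes, and 58 members had an entry in the RefSeq promoter table (GRCm38.p6), which spans 250 bases before to 50 after the start. The palindromic motif of NRF1, whose letters stand in capitals below, was present on either strand for 12 of the 58 members (20.7%), and for 6.72% of the 16539 genes of the count table that had an entry. CCGGAAG, an ETS motif that GABPA can bind, was present for 14 members (24.1% against 11.9%), AANATGGCG, a YY1 motif, for 8 (13.8% against 3.45%), and TCAAGGTCA, an ESRRA motif, for *Sdhd* and *Atp5g3* (3.45% against 0.39%). These letters are a description of the windows and not of binding. The background was not limited to genes with at least 1 CPM, a level that 65 of the 70 members reach. Whether the larger shares are particular to these genes was not tested. The NRF1 letters were present for 2 of the 5 members called higher with an entry, 5 of the 18 called lower and 5 of the 35 not called, so that members with them lay on both sides. The sequences before the start are shown, 5′ to 3′ with such letters in capitals, for the called genes of complex II, for *Ndufs5* as the largest change in complex I, and for the isoform gene *Cox6b2* as the largest rise; *Sdha* carries the NRF1 letters 3 times, *Ndufs5* once, *Sdhd* once beside the ETS letters, and *Cox6b2* has none of the motifs.
*Sdha*, chr13:74350241-74350490 (- strand): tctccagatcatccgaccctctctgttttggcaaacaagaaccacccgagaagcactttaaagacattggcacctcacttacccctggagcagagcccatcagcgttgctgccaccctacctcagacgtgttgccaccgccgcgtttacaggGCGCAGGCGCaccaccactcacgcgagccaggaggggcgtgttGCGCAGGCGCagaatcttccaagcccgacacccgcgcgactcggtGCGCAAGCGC
*Sdhd*, chr9:50603850-50604099 (- strand): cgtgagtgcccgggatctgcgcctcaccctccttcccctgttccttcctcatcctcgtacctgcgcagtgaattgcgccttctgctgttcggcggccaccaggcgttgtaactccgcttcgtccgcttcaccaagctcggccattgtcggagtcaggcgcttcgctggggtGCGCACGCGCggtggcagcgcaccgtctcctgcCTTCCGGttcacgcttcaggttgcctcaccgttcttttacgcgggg
*Ndufs5*, chr4:123718187-123718436 (- strand): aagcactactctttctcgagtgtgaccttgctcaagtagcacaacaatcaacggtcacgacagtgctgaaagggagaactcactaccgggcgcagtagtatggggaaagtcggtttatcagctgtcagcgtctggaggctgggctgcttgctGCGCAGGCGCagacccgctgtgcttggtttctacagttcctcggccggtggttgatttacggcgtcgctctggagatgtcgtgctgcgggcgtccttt
*Cox6b2*, chr7:4753095-4753344 (- strand): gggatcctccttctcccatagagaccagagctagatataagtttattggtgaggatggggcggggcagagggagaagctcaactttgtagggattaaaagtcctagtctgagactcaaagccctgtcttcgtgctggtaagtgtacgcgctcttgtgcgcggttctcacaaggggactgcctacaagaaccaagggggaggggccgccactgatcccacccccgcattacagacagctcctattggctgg

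Complex III takes electrons from ubiquinol and gives them to cytochrome c. Of its 7 measured subunits, 0 were higher in d6PGCLCs, 1 was lower and 6 did not pass. The called one was *Uqcrc1*, a core protein of the matrix side, at 325, 360, 309 and 287 CPM in d6PGCLC replicates 1 to 4 and at 419, 393, 433 and 435 CPM in PGC replicates 1 to 4. The groups did not overlap, and the log2 fold change was -0.39 (SE 0.09, adjusted p = 0.0012).

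Its partner core protein *Uqcrc2* ranged from 220 to 297 CPM in d6PGCLCs and from 277 to 303 CPM in PGCs (-0.17, SE 0.09, adjusted p = 0.19). The redox subunits gave overlapping groups. *Uqcrfs1*, the Rieske iron-sulfur protein, had -0.16 (SE 0.09, adjusted p = 0.24), and *Cyc1*, cytochrome c1, had 0.01 (SE 0.09, adjusted p = 1). The small subunits *Uqcrh*, *Uqcr10* and *Uqcr11* lay between -0.28 and -0.18 without passing. The other 6 fitted values all lay between -0.28 and 0.01, and correcting each library for transcript length brought the calls of complex III to 3 lower.

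*Cycs*, the somatic cytochrome c gene whose product shuttles electrons to complex IV and can trigger apoptosis, was listed at 17, 28, 18 and 21 counts in d6PGCLC replicates 1 to 4 and at 20, 51, 38 and 47 counts in PGC replicates 1 to 4. It was lower by -0.80 (SE 0.30, adjusted p = 0.046) with overlapping groups. The call was lost without any of 6 libraries (d6PGCLC replicates 1, 3 or 4, PGC replicates 2, 3 or 4; adjusted p = 0.054 to 0.17). Of its 100-base transcript windows, 24.7% are shared with transcripts of 3 other genes, and its level of 0.71 and 1.23 RPKM was far below that of *Cyc1*, at 201 and 199 RPKM.

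Complex IV, or cytochrome c oxidase, is the complex with the most tissue isoforms. Of its 18 measured members, 2 were higher, 6 were lower and 10 did not pass, and the median log2 fold change of the 14 with at least 1 CPM was -0.24. *Cox5a* and *Cox5b*, early-assembling subunits without isoforms, did not pass: *Cox5a* was at 250 to 341 CPM against 264 to 295 CPM (0.05, SE 0.10, adjusted p = 0.87), and *Cox5b* at 70.6 to 85.9 CPM against 74.5 to 103 CPM (-0.11, SE 0.11, adjusted p = 0.59).

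*Cox6b2* had the highest rise of all members above 1 CPM. It encodes a form of subunit 6b known from the testis, and *Cox6b1* encodes the general form. *Cox6b2* was at 109, 124, 123 and 104 CPM in d6PGCLC replicates 1 to 4 and at 54.3, 79.7, 67.4 and 73.7 CPM in PGC replicates 1 to 4. Every d6PGCLC library lay above every PGC library, with a log2 fold change of 0.74 (SE 0.11, adjusted p = 2.24e-05) that stayed between 0.65 and 0.82 with any library left out. *Cox6b1* was at 170, 277, 270 and 241 CPM against 141, 218, 181 and 215 CPM, with overlap, at 0.34 (SE 0.14, adjusted p = 0.066). It passed with a correction for transcript length (0.35, adjusted p = 0.0041), without d6PGCLC replicate 1 (0.48, adjusted p = 0.00080), without PGC replicate 2 (0.42, adjusted p = 0.038) and without PGC replicate 4 (0.41, adjusted p = 0.043).

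Per kilobase, *Cox6b2* made up 39.0%, 30.9%, 31.3% and 30.0% of the *Cox6b* pair in d6PGCLC replicates 1 to 4 and between 25.5% and 27.7% in PGCs. The groups did not overlap, and d6PGCLC replicate 1 lay well above the other libraries. *Cox6b1* was the larger part of the pair in all 8 libraries.

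The other isoform genes of complex IV were lower or hardly present. *Cox8c*, also a testis form, was listed at 4, 2, 0 and 0 counts in d6PGCLC replicates 1 to 4 and at 6, 10, 10 and 17 counts in PGC replicates 1 to 4, and its log2 fold change was -2.65 (SE 0.80, adjusted p = 0.0047). The groups did not overlap, but all these counts were low, and *Cox8c* made up at most 0.76% of the *Cox8* genes per kilobase. *Cox8a*, the general form, was at 165, 195, 158 and 156 CPM against 193, 250, 203 and 224 CPM, and was lower by -0.37 (SE 0.10, adjusted p = 0.0065) with d6PGCLC replicate 2 just inside the PGC range. Without PGC replicates 2 and 4 together, neither *Cox8c* (-2.29, adjusted p = 0.054) nor *Cox8a* (-0.23, adjusted p = 0.18) passed. *Cox7b2*, the third testis form, was at 0.66 to 2.65 CPM against 1.75 to 2.35 CPM and did not pass (adjusted p = 0.49), and its general form *Cox7b* had -0.20 (SE 0.18, adjusted p = 0.50).

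*Cox7a1*, the heart and skeletal muscle form of subunit 7a, and *Cox7a2*, the general form, were lower together. *Cox7a2* was at 103, 241, 224 and 177 CPM in d6PGCLCs and at 204, 302, 277 and 314 CPM in PGCs (-0.56, SE 0.18, adjusted p = 0.019). *Cox7a1* was at 16.6, 27.8, 21.3 and 15.2 CPM against 20.0, 32.6, 30.9 and 30.4 CPM (-0.49, SE 0.18, adjusted p = 0.047). Both had overlapping groups, and both lost the call without PGC replicate 2 or without PGC replicate 4 (adjusted p = 0.059 and 0.057 for *Cox7a2*, 0.14 and 0.11 for *Cox7a1*), as did *Cox7a1* without PGC replicate 3 or d6PGCLC replicates 1, 3 or 4 (adjusted p = 0.066 to 0.16). The share of *Cox7a1* in the pair per kilobase was 12.9% to 21.9% in d6PGCLCs and 14.4% to 16.2% in PGCs, so the groups overlapped. *Cox7a2l* was higher, at 148 to 196 CPM against 122 to 152 CPM (0.33, SE 0.10, adjusted p = 0.014), with overlap, and lost the call without d6PGCLC replicate 2 or PGC replicate 1 (adjusted p = 0.062 and 0.053).

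The remaining muscle and lung forms were at the limit of detection in both groups. *Cox4i2*, the lung form of subunit 4, *Cox6a2* and *Cox8b*, the heart and muscle forms of subunits 6a and 8, each had at most 2 counts in every library, and no fold is given. *Cox6a1*, the general form of 6a, was at 242 to 342 CPM against 259 to 343 CPM (-0.09, SE 0.11, adjusted p = 0.64). *Cox7c* (-0.62, SE 0.22, adjusted p = 0.034) and *Cox6c* (-0.37, SE 0.13, adjusted p = 0.032) completed the lower calls, both with overlap, and both lost the call without d6PGCLC replicates 1 or 4 or PGC replicates 2 or 4 (adjusted p = 0.068 to 0.15), as did *Cox6c* without PGC replicate 3. *Ndufa4* did not pass (-0.27, SE 0.18, adjusted p = 0.30).

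The ATP synthase held the most abundant member. Of its 12 measured subunits, 1 was higher, 3 were lower and 8 did not pass, and the median log2 fold change of the 11 with at least 1 CPM was -0.38, the lowest of the 5 complexes. *Atp5b*, the catalytic beta subunit, was at 3082, 3418, 2907 and 2982 CPM in d6PGCLC replicates 1 to 4 and at 3242, 3247, 3307 and 3519 CPM in PGC replicates 1 to 4. The groups overlapped, and the log2 fold change was -0.10 (SE 0.08, adjusted p = 0.41), which passed with a correction for transcript length (-0.17, adjusted p = 0.030).

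*Atp5a1*, the alpha subunit that alternates with beta in the head of the enzyme, was at 1763, 1866, 1581 and 1659 CPM in d6PGCLCs and at 1317, 1391, 1371 and 1494 CPM in PGCs. The groups did not overlap, and it was higher by 0.30 (SE 0.08, adjusted p = 0.0062). Per kilobase, the ratio of *Atp5a1* to *Atp5b* was 0.43 to 0.45 in d6PGCLCs and 0.32 to 0.34 in PGCs. Transcripts of alpha and beta, which the enzyme holds in equal number, were thus unequal in both groups and nearer to each other in d6PGCLCs.

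Subunit c, which forms the rotor in the membrane, went the other way. *Atp5g1* and *Atp5g3* encode the same mature subunit c behind different import sequences, and both were lower. *Atp5g1* was at 34.2, 51.3, 45 and 46.8 CPM in d6PGCLC replicates 1 to 4 and at 72.4, 89.6, 81.0 and 89.8 CPM in PGC replicates 1 to 4. The groups were far apart, with a log2 fold change of -0.91 (SE 0.12, adjusted p = 4.71e-06) that stayed between -0.99 and -0.80 with any library left out. *Atp5g3* was at 243, 372, 329 and 315 CPM against 377, 472, 442 and 456 CPM, without overlap, at -0.47 (SE 0.11, adjusted p = 0.0016).

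*Atp5g1* made up 11.2% to 12.1% of the pair per kilobase in d6PGCLCs and 14.5% to 15.4% in PGCs, again without overlap, and *Atp5g3* was the main source of subunit c transcripts of the pair in all 8 libraries. The ratio of *Atp5a1* to *Atp5g1* was 12.1 to 17.7 in d6PGCLCs and 5.32 to 6.24 in PGCs. Of the transcript windows of *Atp5g1*, 48.1% are shared with 1 other gene and those of *Atp5g3* with none, and the effect of this on the share was not tested.

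The third lower call of the ATP synthase was *Atp5e*, the epsilon subunit of the central stalk, at 67.6, 166, 143 and 99.3 CPM against 121, 211, 177 and 197 CPM (-0.57, SE 0.19, adjusted p = 0.028). It had overlapping groups and lost the call without d6PGCLC replicate 4 or PGC replicates 2 or 4 (adjusted p = 0.071 to 0.11). *Atp5d*, the delta subunit that sits beside it, had a fitted value of 0.17 (SE 0.09, adjusted p = 0.15). *Atp5o*, which ties the head to the outer stalk, and the small membrane subunits *Atp5j2*, *Atp5k*, *Atp5md* and *Atp5mpl* had values of -0.47 to -0.29 and did not pass. *Atp5l* was listed at under 1.5 CPM in every library, and 69.0% of its transcript windows are shared with 6 other genes.

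**Figure D2:**
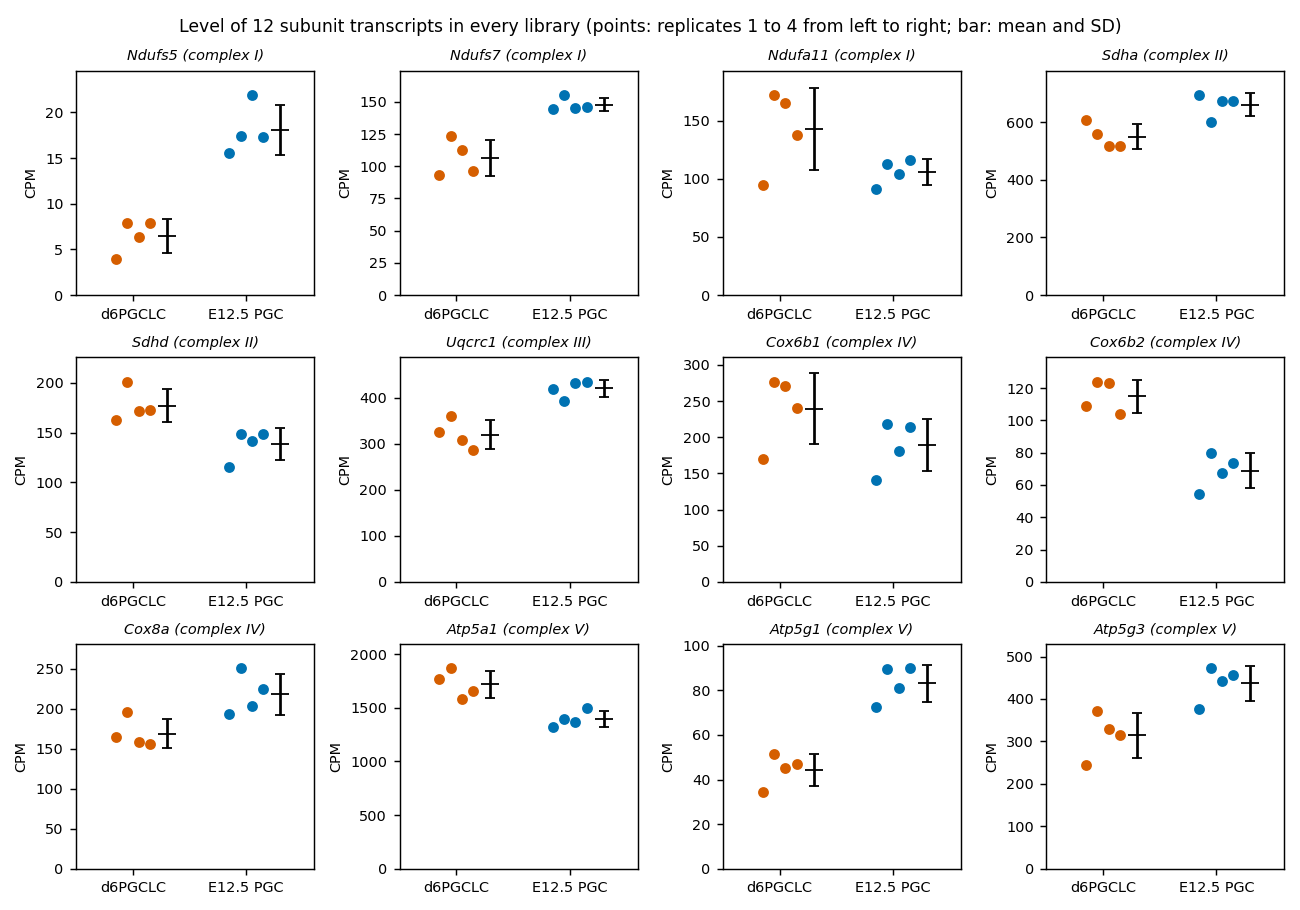
CPM of 12 subunit transcripts in each of the 4 d6PGCLC (orange) and 4 E12.5 PGC (blue) libraries, on axes that start at 0, with the mean and SD of each group in black. *Cox6b2*, *Sdhd* and *Atp5a1* lie higher and *Ndufs5*, *Ndufs7*, *Uqcrc1*, *Atp5g1* and *Atp5g3* lower in every d6PGCLC library, while *Ndufa11*, *Sdha*, *Cox6b1* and *Cox8a* overlap.

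**Figure D3:**
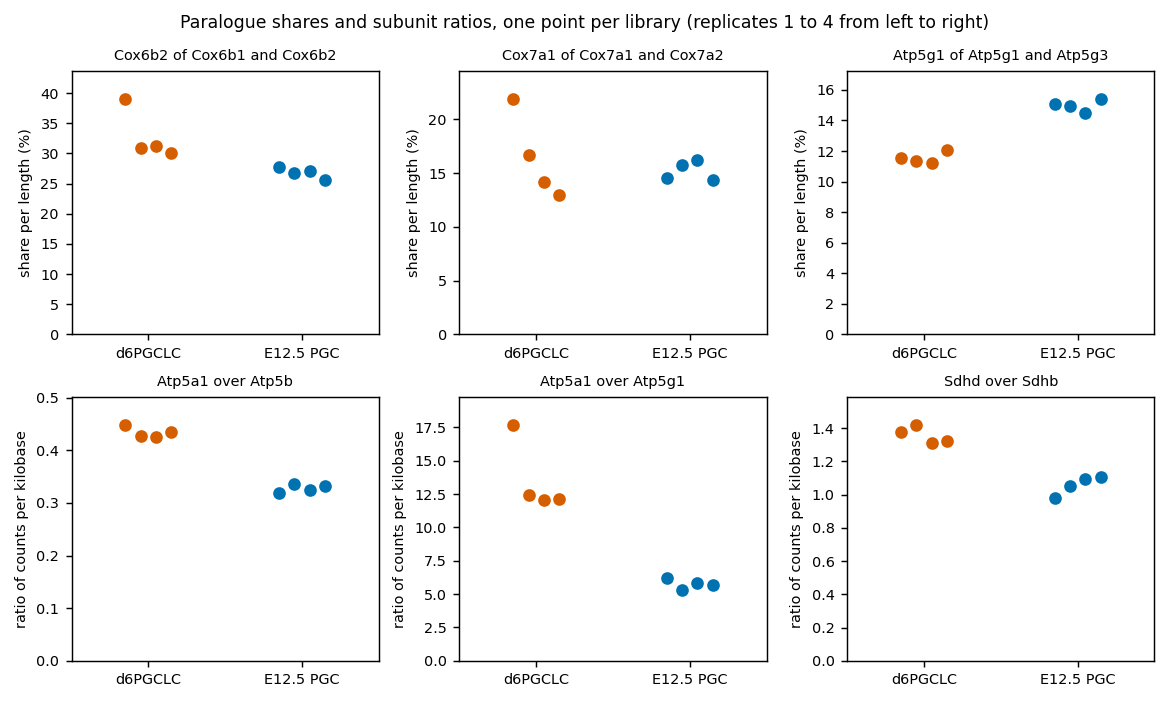
Share of *Cox6b2*, *Cox7a1* and *Atp5g1* in their paralogue pairs (percent of counts per kilobase) and ratios of counts per kilobase for *Atp5a1* over *Atp5b*, *Atp5a1* over *Atp5g1* and *Sdhd* over *Sdhb*, with 1 point for each library. Only the *Cox7a1* share overlaps between d6PGCLCs and E12.5 PGCs.

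Levels per length ran over a wide range among the subunits. *Atp5b* was the highest member in both groups, at 1359 ± 98.9 RPKM (SD, n = 4) in d6PGCLCs and 1461 ± 57.1 RPKM in PGCs, and *Atp5a1* the next, at 590 ± 42.6 and 479 ± 25.4 RPKM. In PGCs *Atp5g3* followed at 473 ± 45 RPKM and *Cox6a1* at 467 ± 54.1 RPKM, and these did not differ from *Atp5a1* beyond their spread. The median member was at 108 RPKM in d6PGCLCs and 118 RPKM in PGCs. In PGCs the median was 89.3 RPKM for complex I, 93.1 for complex II, 193 for complex III, 110 for complex IV and 254.6 for the ATP synthase.

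Low levels often fell on genes that share sequence with a transcript of another gene. Of the 70 members, 19 share 100-base windows with a transcript of another gene, and of the 12 members between 1 and 50 RPKM in PGCs, 8 were among these 19. *Ndufab1*, the acyl carrier protein of mitochondria, shares 80.5% of its windows, *Atp5l* 69.0% and *Cox7c* 44.4%. Windows were matched on either strand, and other genes at the same place in the genome were not set apart from copies elsewhere. Since only uniquely mapped reads were counted, the level of these genes is uncertain, and the part of the shared windows in it was not tested.

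**Figure D4:**
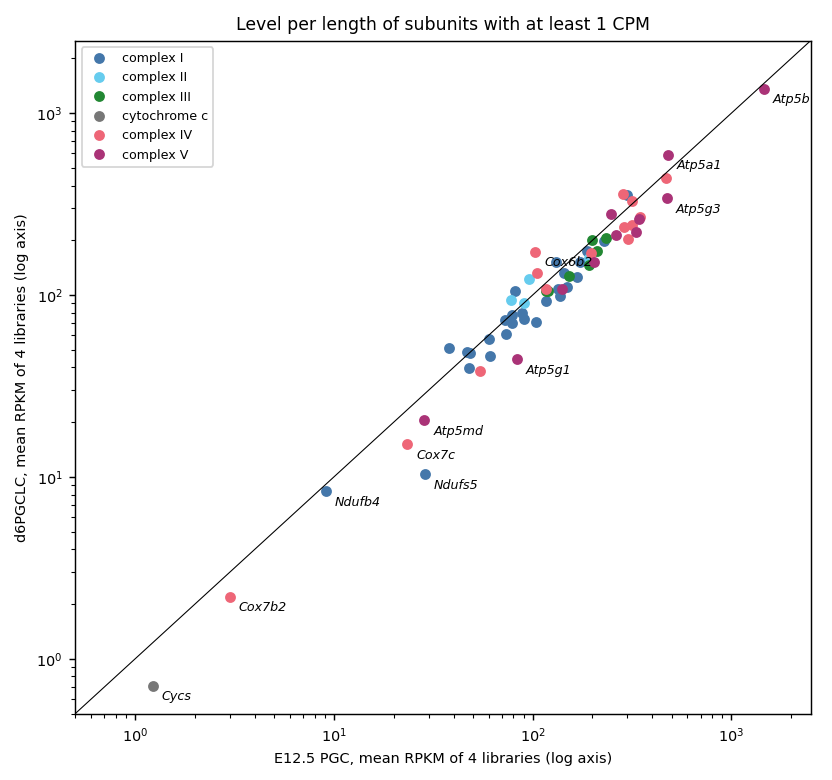
Mean RPKM over 4 libraries in d6PGCLCs against E12.5 PGCs for 64 of the 65 subunits with at least 1 CPM, on log axes, coloured by complex, with the line of equal level. Most points lie close to the line, *Atp5b* is at the top and *Ndufs5* and *Atp5g1* lie below the line.

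Part of the spread ran between libraries of 1 group and not between the groups. The subunits' summed level was 12133, 15450, 13593 and 13095 CPM in d6PGCLC replicates 1 to 4 and 13164, 14927, 14441 and 15336 CPM in PGC replicates 1 to 4. In d6PGCLC replicate 1, the median log2 deviation of the ATP synthase subunits from their mean over all libraries was -0.77 and that of complex I was -0.40, while that of complex II was 0.04. PGC replicate 1 was the lowest PGC library for all 5 complexes, with medians of -0.20 to -0.07.

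Transcript length moved with these deviations. Subunit transcripts are short, with a median exonic length of 811 bases against 2931 for all genes with at least 1 CPM, and libraries differed in how their deviations ran with length, from -0.35 log2 units per unit of log10 length in d6PGCLC replicate 2 to 0.34 in PGC replicate 1. With each library corrected for length by a loess offset, 8 subunits were higher (16.1% of all genes) and 31 lower (16.9% of all genes), the 27 calls held, and the ATP synthase went from 3 to 8 lower. The added calls were *Ndufa7* and *Cox6b1* among the higher, and *Ndufa10*, *Ndufb6*, *Ndufv1*, *Uqcrc2*, *Uqcrfs1*, *Atp5b*, *Atp5j2*, *Atp5k*, *Atp5mpl* and *Atp5o* among the lower. After the offset, d6PGCLC replicate 1 still had a median deviation of -0.55 for the ATP synthase and -0.29 for complex I. The median log2 fold change of all members moved from -0.20 to -0.24.

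**Figure D5:**
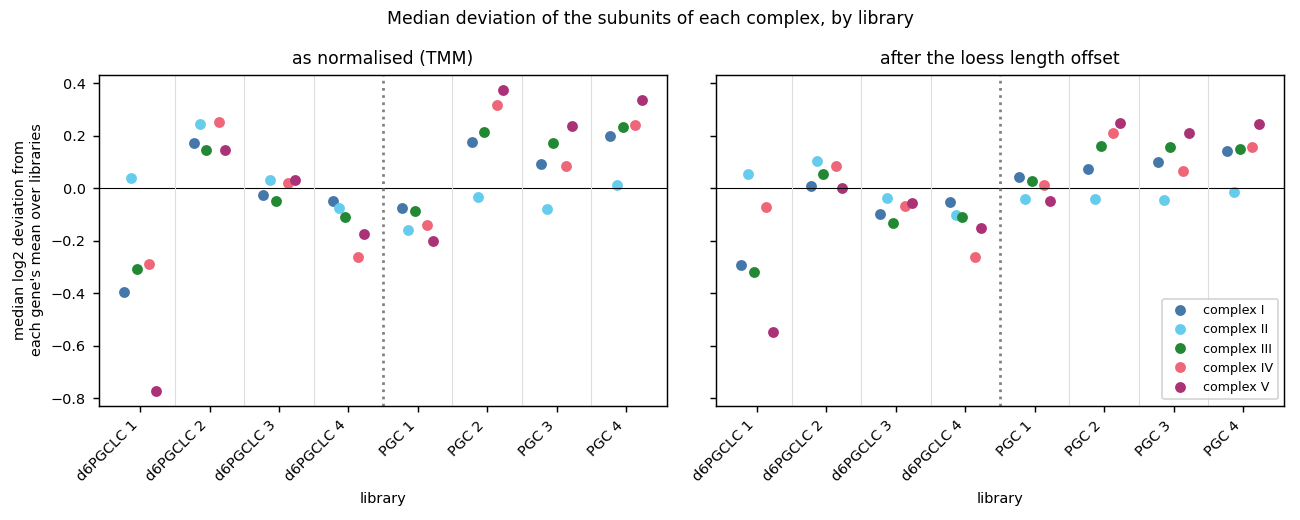
Median log2 deviation of the subunits of each complex from each gene's mean over the 8 libraries, before (left) and after (right) the length offset, with 1 colour for each complex. The ATP synthase is lowest in d6PGCLC replicate 1, at -0.77 before and -0.55 after the offset, and complex II stays within 0.11 of 0 in every library after it.

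Genes that build, regulate or feed the respiratory chain were described from 10 lists with 111 genes in the table, of which 21 were higher and 23 lower in d6PGCLCs by the same test. Of the 106 with at least 1 CPM, 19.8% were higher and 21.7% lower, both below the 28.1% and 25.6% of all genes at that level. Among the assembly factors, 1 of 12 for complex I was higher and 3 lower, 0 of 4 for complex II were called, 0 of 5 for complex III were higher and 1 lower, 2 of 16 for complex IV were higher and 3 lower, and 1 of 4 for the ATP synthase was higher and 1 lower. Of 15 genes of the TCA cycle, 4 were higher and 3 lower, of 20 genes of mitochondrial transport and structure 5 and 7, and of 11 genes of uncoupling and antioxidant defence 4 and 1. With the length offset, 0 complex I assembly factors were higher and 4 lower. The transport and structure list then had 6 higher and 7 lower, and the hypoxia list below had 2 and 2. The other lists kept their counts, and 16.1% of all genes were called higher and 16.9% lower.

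Of 15 regulators of mitochondrial biogenesis, 2 were higher and 3 lower. *Nrf1*, the factor of the palindromic motif above, was lower, at 74.5 ± 4.6 CPM (SD, n = 4) in d6PGCLCs and 96.9 ± 5.0 CPM in PGCs (-0.38, SE 0.10, adjusted p = 0.0035). The ETS factor *Gabpa* (204 and 205 CPM, adjusted p = 1), *Tfam*, which maintains mitochondrial DNA (127 and 110 CPM, adjusted p = 0.14), and *Esrra* (6.48 and 8.50 CPM, adjusted p = 0.21) did not pass. *Yy1*, whose motif was also read, was higher, at 86.7 ± 7.4 CPM against 57.1 ± 5.8 CPM without overlap (0.60, SE 0.11, adjusted p = 0.00012). The coactivators *Ppargc1a* and *Ppargc1b* were close to the detection limit, at means of at most 0.03 and 0.73 CPM.

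Among the called genes of these lists, *Ucp2*, *Bnip3* and *Pdk3* changed by at least 1 on the log2 scale. *Ucp2*, an inner membrane carrier of the uncoupling protein family, reached 415 ± 34.6 CPM (SD, n = 4) in d6PGCLCs against 201 ± 5.9 CPM in PGCs (1.04, SE 0.09, adjusted p = 4.12e-09). Of 9 genes known to lower or switch respiratory chain use in hypoxia, 2 were higher and 1 lower. *Bnip3*, a receptor for the removal of mitochondria, was higher at 1.13 (SE 0.11, adjusted p = 5.39e-08), and *Pdk3*, a kinase that shuts down pyruvate dehydrogenase, was lower at -1.15 (SE 0.10, adjusted p = 1.84e-08), while *Pdk1*, which has the same action, was higher at 0.94 (SE 0.09, adjusted p = 5.8e-08). *Ndufa4l2*, which can take the place of *Ndufa4* in hypoxia, was at 2.02 and 1.37 CPM and did not pass (adjusted p = 0.49).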

How the data were processed

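Bulk poly(A) RNA-Seq libraries (stranded, single-end) of 4 d6PGCLC and 4 E12.5 PGC pools were read from the count table the authors deposited. Per the study's methods, the authors aligned reads to GRCm38 with STAR, chose a random isoform for each gene and counted uniquely mapped reads over its exons with QuasR, so that reads shared with close copies are missing. No sample column was left unmapped. Entrez identifiers were matched to RefSeq symbols (21907 of 21950), and members were chosen by symbol.

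Counts were fitted in edgeR 4.0.16 (R 4.3.3; TMM, no filter, all genes, cell type as the only term, prior count of 0.125) with the quasi-likelihood test and Benjamini-Hochberg adjustment over all genes. The study used the likelihood ratio test, which is an alternative here. Alternatives were DESeq2 1.42.0, other normalizations and filters, a prior count of 2, a replicate block, a loess length offset (span 0.5), an adjusted p of at most 0.01 and leaving out libraries; the length offset with the replicate block, and leaving out replicate 1 of both groups, were added after the data had been seen. RPKM were computed from counts and the deposited exonic length, and shared windows were read from the GENCODE transcript nearest to that length. The fits were tested on simulated data. No 2 libraries of a group agreed within sampling noise (chi-square divided by its degrees of freedom, lowest value 3.19).

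The members and gene lists were chosen with earlier results of these data known. Named were redox, catalytic and subunit c genes, paralogue pairs, up to 5 called members per complex and direction with the largest change (averaging 100 counts or more, groups apart), members at the detection limit, and called list genes that changed by at least 1 on the log2 scale, and 6 regulators. Other called members, the Uqcr, Atp5 and remaining uncalled subunits, *Pdk1*, *Ndufa4l2* and *Yy1* were named after their values were seen. The values of 1 member are not reported here, though it is part of the counts and sums. The floor of 3 counts covers counting error only, while the SE and SD include the spread between libraries.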

Additional observations from a re-analysis of the deposited data

Results flagged for a closer look

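Single libraries stood apart from the other 3 of their group for 8 of 154 sets of 4 values, where about 7.7 would do so by chance (1 in 20). In d6PGCLC replicate 1, *Atp5o* was lowest at 156 CPM, with the next library at 244 CPM, and *Ndufb11* was lowest at 126 CPM, with the next at 153 CPM. In the same library the share of *Cox6b2* in the *Cox6b* pair was highest at 39.0%, with the next at 31.3%. The summed level of the ATP synthase subunits was highest in d6PGCLC replicate 2 at 6813 CPM, with the next at 5941 CPM.

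In PGC replicate 1, 4 subunits were lowest: *Ndufb7* at 73.9 CPM (next 116 CPM), *Ndufb8* at 122 CPM (next 152 CPM), *Uqcr11* at 58.0 CPM (next 91.6 CPM) and *Cox6c* at 188 CPM (next 213 CPM). Without replicate 1 of both groups, 7 subunits were higher and 24 lower, where 16.1% and 14.7% of all genes were called.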

How the results depend on the processing

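The likelihood ratio test, DESeq2, the other normalizations and filters and a prior count of 2 gave 6 subunits higher and 19 to 25 lower in d6PGCLCs, with 14.8% to 16.8% of all genes called in each direction. DESeq2 and the likelihood ratio test each shared 25 of the 27 calls. Counts per complex moved under upper quartile scaling for the ATP synthase (6 lower). With an adjusted p of at most 0.01, 3 subunits were higher and 8 lower, where 12.9% and 11.2% of all genes were called (complex I 0 and 3, complex II 0 lower, cytochrome c 0, complex IV 1 and 2). Without PGC replicates 2 and 4 together, 7 were lower (complex I 3, cytochrome c 0, complex IV 0), and 11 genes of the context lists were lower. The length offset gave 3 lower for complex III and 8 for the ATP synthase. Without replicate 1 of both groups, 6 subunits of the ATP synthase were lower. The cause of these shifts was not tested.

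The labels give both groups replicate numbers 1 to 4. The correlation of deviations between same-numbered libraries was 0.24, 0.094, 0.0070 and 0.028. The d6PGCLC replicates 1, 2 and 4 correlated best with the PGC library of their own number. Replicate 3 correlated best with PGC replicate 4 (0.082), so not every library was closest to its own number. With the length correction, d6PGCLC replicate 2 was also closest to PGC replicate 4. Whether the numbers mark a pairing of the libraries is not known. With the number as a replicate block, 9 subunits were higher (16.9% of all genes) and 31 lower (16.2% of all genes), with 2 higher for complex II, and 3 lower for complex III and 8 for the ATP synthase. Added to the calls were *Ndufa7*, *Sdhc* (0.26, adjusted p = 0.026) and *Cox6b1* (0.34, adjusted p = 0.00081) among the higher, and *Ndufb6*, *Uqcr10*, *Uqcr11*, *Cox7b* (-0.26, adjusted p = 0.023), *Ndufa4* (-0.33, adjusted p = 0.0052), *Atp5j2*, *Atp5k*, *Atp5md*, *Atp5mpl* and *Atp5o* among the lower. With the length offset and replicate block together, 8 were higher and 36 lower (16.2% and 17.2% of all genes), with 4 lower for complex III and 9 for the ATP synthase, and *Ndufv2* passed (-0.25, adjusted p = 0.030). All 27 calls held in both.

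With each library left out in turn, 3 to 9 subunits were higher and 8 to 29 lower, where 14.1% to 16.6% and 13.1% to 15.6% of all genes were called. The ranges were 0 to 4 and 3 to 12 for complex I, 1 to 2 and 0 to 1 for complex II, 1 to 3 lower for complex III, 0 to 1 lower for cytochrome c, 1 to 3 and 2 to 6 for complex IV, 2 to 8 lower for the ATP synthase, and 15 to 22 lower for the context lists.

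Shares from raw counts in place of counts per kilobase were 10.2% and 9.38% for *Cox7a1* in d6PGCLCs and PGCs, 12.4% and 16.0% for *Atp5g1*, and 0.90% for *Cox7b2* in PGCs.

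Uncalled subunits with fitted values near 0 changed sign. *Cyc1* was at -0.022 with library size scaling, -0.027 with upper quartile scaling, -0.0034 and -0.0055 with the CPM and filterByExpr filters, -0.053 with the length offset and -0.052 with offset and block. *Ndufs8* was, in the same order, at -0.032, -0.036, -0.013, -0.015, -0.053 and -0.057, at -0.0092 and -0.0095 with DESeq2 size factors and DESeq2, and at -0.0023 with the block. Without PGC replicates 2 and 4, *Cox6a1* was at 0.034 and *Sdhb* at 0.080, and *Sdhb* was at 0.0018 without replicate 1 of both groups. With each library left out, *Cox5a* ranged from -0.036 to 0.12, *Cox5b* from -0.16 to 0.0020, *Cyc1* from -0.041 to 0.039, *Ndufs8* from -0.093 to 0.12 and *Sdhb* from -0.051 to 0.043.

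Depth limits *Cox8c*, *Cox7b2*, *Cycs*, *Atp5l* and the isoforms at 0 to 2 counts, for which a change could not be measured finely or at all. For the 19 members that share transcript windows with another gene, the effect on the level was not tested.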
